A study of Mus musculus with 3 samples.

Results

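Sln, Myl7, Myl4, Gja5, Bmp10, Nr2f2 and Dkk3 are genes that in the mouse heart are known for higher expression in the atria than in the ventricles. Every gene probe that the array annotation names after 1 of these 7 genes was taken, which gave 14 of the 41174 probes of the array, and 7 of its 28632 genes. The natriuretic peptide genes Nppa and Nppb were left out by the rule that set the members. They also mark stressed ventricles. Gene expression was measured in adult hearts at 2 months of age with 3 arrays of the 2-colour Agilent 4x44K whole mouse genome type, here replicates 1 to 3. By the sample labels, the Cy5 channel of each array held RNA pooled from 2 Lrrc10-/- hearts, hearts of a constitutive knockout of leucine rich repeat containing 10, and the Cy3 channel held a reference pool from 2 Lrrc10+/+ (WT) hearts, all from C57/BL6 mice. The study describes the pools as independent replicates from littermates, but the labels do not say if a single WT pool was used on every array, and there was no dye swap and only 1 slide. The p-values below therefore cover the spread between the 3 ratios, and the effects of dye and genotype cannot be told apart.

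The labels of the channels go against the targeted gene. The Lrrc10 probe had Cy5 signals of 14283, 20828 and 17703 on replicates 1, 2 and 3 and Cy3 signals of 476, 443 and 352, and was on every array the brighter in the channel that the labels give to Lrrc10-/-, with a mean log2 ratio of 5.37 ± 0.41 (SD, n = 3). Where the probe lies relative to the deletion was not examined. All ratios are therefore given as Cy5 over Cy3 and by channel, and by the labels the direction of Lrrc10, and of Nppa below, is the reverse of the one the study describes. If the dyes had been exchanged, each ratio would keep its size and turn its sign. Agreement between arrays was low over all tested probes, and the Pearson r of their ratios was 0.10 between replicate 1 and replicate 2, -0.04 between replicate 1 and replicate 3, and -0.18 between replicate 2 and replicate 3, across probes, which are not independent replicates.

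Atrial and ventricular cardiomyocytes are built from overlapping sets of proteins, and the differences lie in the light chains of myosin, in the regulation of calcium uptake, in gap junctions and in secreted factors. Each myosin head carries an essential and a regulatory light chain, and the atria use Myl4 and Myl7 for these roles where ventricles use Myl3 and Myl2. Sln encodes sarcolipin, a short membrane peptide that slows the calcium pump SERCA and is found in rodents mainly in atria and skeletal muscle. Ventricles make up most of the mass of a whole heart, and how evenly the atria were included in each pool of hearts is not given in the sources used here and was not tested. In RNA from whole tissue, fewer cells of a type and less RNA per cell cannot be told apart.

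The members split by signal before any comparison. A geometric mean processed signal of at least 20 over both channels and all arrays was required for the test, and 12 of the 14 probes, from 6 of the 7 genes, passed. The Bmp10 probe, with a mean signal of 7.07, and a second Sln probe, with 14.3, did not. None of the 14 probes was saturated. Probes differ in how brightly they report a transcript, so their levels are not set against each other.

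Sln and Myl7 had the same pattern on the arrays. Both were near equal in the channels on replicate 1, more than 10-fold brighter in Cy5 on replicate 2 and more than 2-fold brighter in Cy3 on replicate 3. The sizes hold for the deposited background subtraction. With normexp correction, which adds an offset, and loess, the log2 ratio of Sln was 1.44 on replicate 2 and -0.24 on replicate 3, and that of Myl7 was 2.16 and -0.43. The probe sequences that carry this result are shown by their first 30 of 60 bases, 5′ to 3′, as the array design gives them, with the second Sln probe for contrast.
Sln A_52_P413395: gccttagctttgttccctagcaaatgtact
Sln A_51_P297498: ctcaaacctttccttcgagaatcctatgac
Myl7 A_51_P246345: atgagaaagaggagtagacaggctgaggtc

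Sln gave Cy3 signals of 47.3, 97.9 and 94.4 and Cy5 signals of 50.1, 1264 and 42.6 on replicates 1, 2 and 3. Only the Cy5 signal of replicate 2 stood away from the rest. The log2 ratios were 0.08, 3.69 and -1.15, which is 12.9-fold brighter in Cy5 on replicate 2 and 2.22-fold brighter in Cy3 on replicate 3. The scanner software, which judges 1 spot on 1 array, gave these ratios p-values of 0.786, 4.42e-20 and 1.45e-05. Among the 29576 tested probes Sln ranked 9 from the top on replicate 2 and 412 from the bottom on replicate 3. The mean log2 ratio was 0.88 ± 2.51 (SD, n = 3), and the spread between arrays exceeded the mean (limma adjusted p = 1.00). Without replicate 2 the mean turned to -0.53, and without replicate 3 it was 1.89 and passed the limma test, with an adjusted p of 0.000217. That call comes from ratios of 0.08 and 3.69, and so from 1 array, in a fit that called 543 of all probes against 2 with all arrays.

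The second Sln probe did not show this pattern. Its Cy3 signals were 14.2, 34.6 and 13.6 and its Cy5 signals 4.92, 28.2 and 9.30, and it was well above background only on replicate 2, in both channels. The log2 ratio there was -0.30, with a software p of 0.493. The array annotation ties this probe to a cDNA clone rather than to the reference transcript of Sln, and the probes share no run longer than 5 bases. The Sln result thus rests on 1 probe.

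Myl7, the atrial regulatory light chain, gave Cy3 signals of 128, 285 and 203 and Cy5 signals of 111, 3021 and 84.4. As for Sln, the Cy5 signal of replicate 2 was far above the other 5 and the lowest value was the Cy5 signal of replicate 3. The log2 ratios were -0.21, 3.41 and -1.27, or 10.6-fold brighter in Cy5 on replicate 2 and 2.40-fold brighter in Cy3 on replicate 3, with software p-values of 0.360, 1.97e-19 and 1.82e-07. Myl7 ranked 14 from the top on replicate 2 and 275 from the bottom on replicate 3. Over the arrays the mean was 0.64 ± 2.45 (SD, n = 3), with a limma adjusted p of 1.00. It was -0.74 without replicate 2, and 1.60 without replicate 3, where it passed the limma test of the same fit with an adjusted p of 0.000421, again by the ratio of replicate 2.

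**Figure D1:**
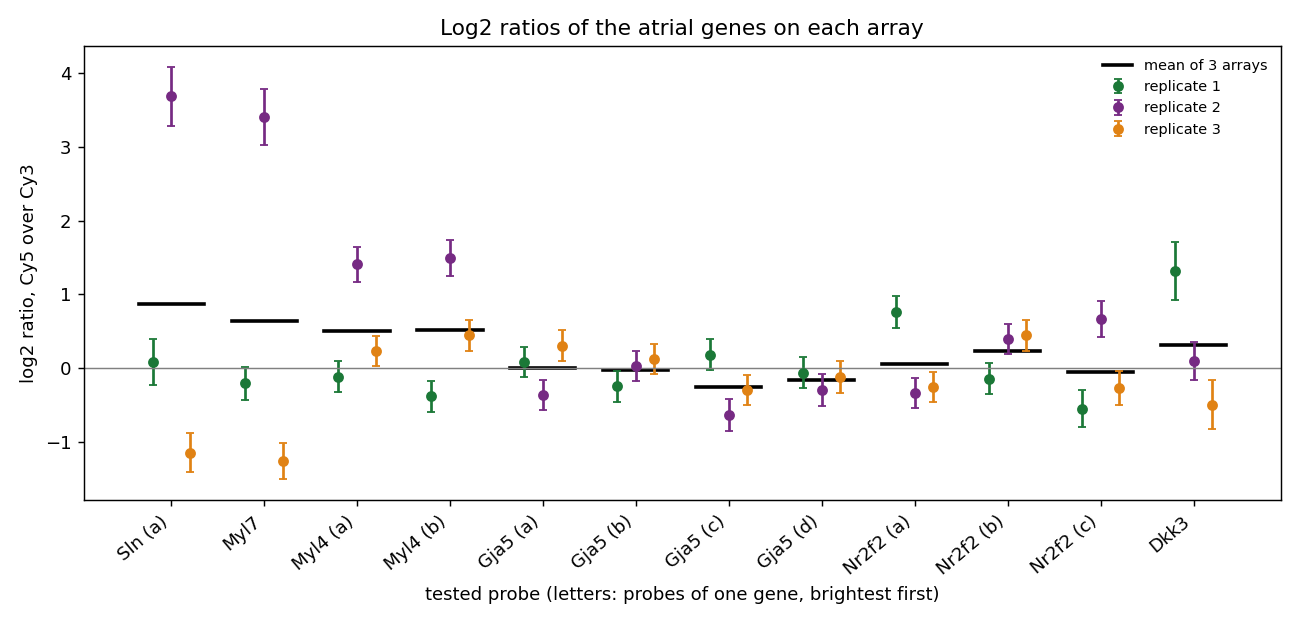
Log2 ratio of processed signals, Cy5 over Cy3, of the 12 tested probes on replicates 1, 2 and 3 (points), with the error the scanner software gives for each ratio (bars) and the mean of the 3 arrays (black lines). Sln and Myl7 reach 3.69 and 3.41 on replicate 2 and lie at -1.15 and -1.27 on replicate 3, and both Myl4 probes are highest on replicate 2.

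Myl4, the atrial essential light chain, went the same way on replicate 2 and not on replicate 3. It was read by 2 probes whose sequences overlap, so they are not independent readings. They are shown whole, 5′ to 3′, with the 47 shared bases in capitals.
Myl4 A_51_P413130: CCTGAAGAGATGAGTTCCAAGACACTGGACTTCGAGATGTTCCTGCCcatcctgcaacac
Myl4 A_52_P544523: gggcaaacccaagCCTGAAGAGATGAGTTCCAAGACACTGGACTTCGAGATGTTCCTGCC

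The first Myl4 probe, A_51_P413130, had Cy3 signals of 408, 507 and 279 and Cy5 signals of 376, 1344 and 329, and the second had Cy3 signals of 433, 513 and 204 and Cy5 signals of 332, 1446 and 278. For each probe, the Cy5 signal of replicate 2 was above the other 5 values. The log2 ratios were -0.12, 1.41 and 0.23 for the first probe and -0.38, 1.50 and 0.45 for the second. Myl4 was thus 2.65-fold and 2.82-fold brighter in Cy5 on replicate 2, with software p-values of 6.04e-09 and 1.24e-09. With normexp and loess the log2 ratios on replicate 2 were 0.94 and 0.88, both under 2-fold. On replicate 3, where Sln and Myl7 were brighter in Cy3, both Myl4 probes had ratios above 0, with software p-values of 0.257 and 0.0339. The means were 0.51 ± 0.80 and 0.52 ± 0.94 (SD, n = 3), each with a limma adjusted p of 1.00, and 0.059 and 0.033 without replicate 2.

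**Figure D2:**
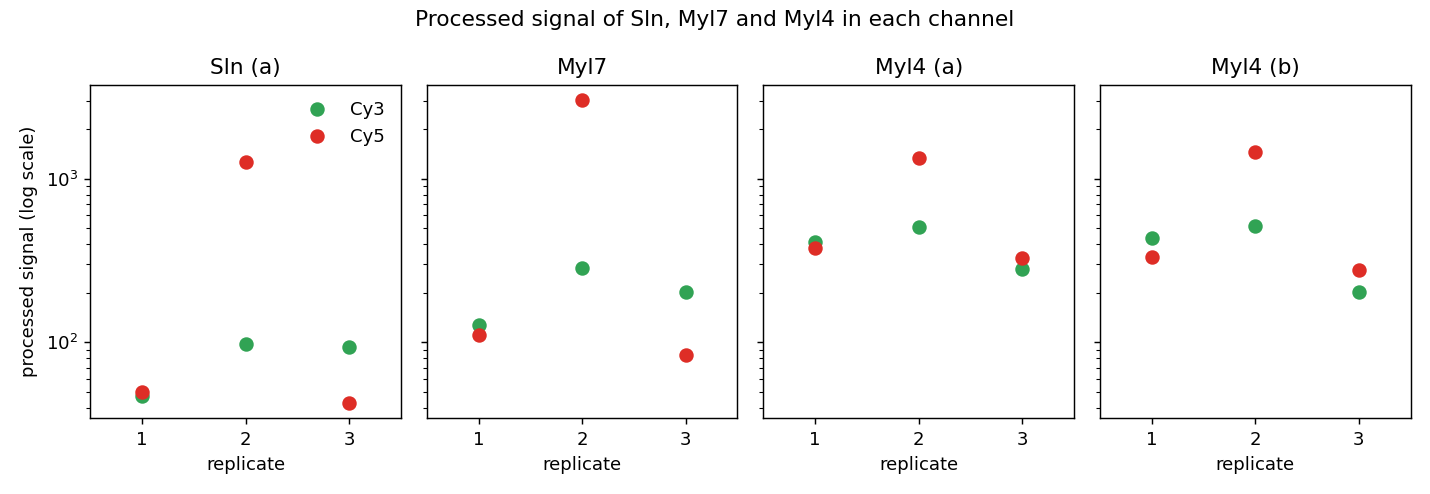
Processed signal, on a log scale, of Sln, Myl7 and both Myl4 probes in Cy3 and Cy5 on replicates 1, 2 and 3; each point is 1 channel of 1 array. The Cy5 channel of replicate 2 is the highest value in each panel, 1264 for Sln and 3021 for Myl7.

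The high ratios of replicate 2 lay in its Cy5 signals. From replicate 1 to replicate 3, in contrast, the Sln signal went from 47.3 to 94.4 in Cy3 and from 50.1 to 42.6 in Cy5, and that of Myl7 from 128 to 203 and from 111 to 84.4. Over the 3 arrays, the log2 Cy5 signal had an SD of 2.76 for Sln and 2.87 for Myl7, against a median SD of 0.35 over all tested probes, and 0.0406% and 0.0338% of the tested probes had an SD as large. In Cy3 the SD was 0.59 and 0.58, against a median of 0.46, and 34.1% and 35.5% of probes had an SD as large. For the first Myl4 probe it was 1.12 in Cy5, which 1.04% of probes reached, and 0.43 in Cy3. These signals were normalized within each array and not between arrays. After scaling between arrays (Aquantile), Sln had an SD of 1.13 and Myl7 of 1.64 in Cy5, with 0.0507% and 0.0203% of probes as large.

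Position on the array was examined after the ratios had been seen. The median log2 ratio of the tested spots within 3 rows and columns was -0.15 around Sln, 0.16 around Myl7 and -0.11 around the first Myl4 probe on replicate 2, and 0.02, 0.15 and 0.13 on replicate 3.

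Gja5 encodes connexin 40, a gap junction protein of atrial muscle, the fast conduction fibres and arterial endothelium, and was read by 4 probes that share no run longer than 8 bases. Its brightest probe, A_52_P525317, had Cy3 signals of 1149, 1451 and 466 and Cy5 signals of 1214, 1124 and 575. The log2 ratios were 0.08, -0.37 and 0.30, with a mean of 0.00 ± 0.34 (SD, n = 3). The signals of the channels overlapped. The other 3 probes had means of -0.03 ± 0.19, -0.25 ± 0.41 and -0.16 ± 0.12, and of 12 single ratios of Gja5 only that of A_51_P333216 on replicate 2, -0.64, had a software p under 0.05 (0.00333). On replicate 2, where Sln and Myl7 were high, 3 of the 4 Gja5 probes lay between -0.30 and -0.64 and the fourth at 0.03. With normexp background correction and loess the means of 3 of the 4 probes changed sign, to -0.11 (A_52_P525317), 0.15 (A_52_P496163) and 0.10 (A_51_P333216), and no direction is given for Gja5.

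Nr2f2 encodes COUP-TFII, a nuclear receptor that maintains atrial identity in cardiomyocytes and venous and lymphatic identity in endothelium, and its 3 probes differed in sign. The brightest, A_52_P620399, had Cy3 signals of 2421, 4987 and 2198 and Cy5 signals of 4098, 3947 and 1840. Its log2 ratios were 0.76, -0.34 and -0.26, and that of replicate 1 had a software p of 0.000429. The other probes gave -0.14, 0.40 and 0.45 (A_51_P147684) and -0.55, 0.67 and -0.27 (A_52_P155713). Both were thus below 0 on replicate 1 and above 0 on replicate 2, where the brightest probe had the other sign. Their longest shared run was 9 bases. The means were 0.06 ± 0.61, 0.23 ± 0.33 and -0.05 ± 0.64 (SD, n = 3), and no direction of Nr2f2 held for its probes together.

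Dkk3, a secreted glycoprotein of the Dickkopf family, most of whose members inhibit Wnt signalling, was read by 1 dim probe. Its Cy3 signals were 24.4, 77.6 and 38.1 and its Cy5 signals 60.9, 82.9 and 27.1, and on replicate 1 the Cy3 signal was not well above background. The log2 ratios were 1.32, 0.09 and -0.50, and the highest, that of replicate 1, rests on that low Cy3 signal. With normexp and loess the ratio of replicate 1 was 0.35. The Cy5 signal itself was highest on replicate 2. The mean log2 ratio was 0.31 ± 0.93 (SD, n = 3), and -0.20 without replicate 1.

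Bmp10 encodes a growth factor that atrial cardiomyocytes secrete and that acts on endothelium. Its probe had Cy3 signals of 6.55, 6.88 and 5.59 and Cy5 signals of 8.04, 6.70 and 9.23, none well above background. The level of Bmp10 was not detectable with this probe in either channel, and no ratio is given for it.

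No member passed a test of a common shift over the arrays. In limma 0 of the 12 member probes were called at an adjusted p under 0.05, against 2 of 29576 probes (0.00676%), and 0 members had an unadjusted p under 0.05, against 907 of all tested probes (3.07%). With the methods' t-test, 0 members had an unadjusted p under 0.05, against 1244 of all tested probes, and 0 probes were called after Benjamini-Hochberg adjustment. The smallest two-sided p of an exact permutation of signs with 3 arrays is 0.25, and the members' exact p ranged from 0.25 to 1 over the tested probes. Without replicate 3 limma called 2 members, Sln and Myl7, and 543 of all probes. The study selected probes by a p-value, a signal minimum and a change of at least 1.2-fold in 1 direction on each chip. That p-value came from standard clustering with the EDGE3 software, and the test behind it was not settled. The selection was repeated with the scanner software p of each array under 0.05 in its place. All counts given here for the study's selection are those of this repeat. It took 0 members in either direction, against 0.406% of the tested probes in Cy5 and 0.507% in Cy3. Without replicate 1, 1 member, the Myl4 probe A_52_P544523, met it in Cy5.

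The members' ratios were also compared array by array. On replicate 2, 4 of the 12 probes (Sln, Myl7 and both Myl4 probes) were at least 2-fold brighter in Cy5 with a software p under 0.05, against 4.58% of all tested probes. On replicate 3, 2 of the 12, Sln and Myl7, were at least 2-fold brighter in Cy3, against 2.25%. On replicate 1 it was 1 of the 12 in Cy5, Dkk3, whose Cy3 signal there was not well above background, against 2.26%. These counts hold for the deposited ratios. With normexp and loess, Sln and Myl7 stayed above 2-fold on replicate 2, at 1.44 and 2.16. Under 2-fold were the Myl4 probes there (0.94 and 0.88), Sln and Myl7 on replicate 3 (-0.24 and -0.43) and Dkk3 on replicate 1 (0.35). The ratio differed at least 2-fold between the arrays in 7 of the 12 probes, against 31.9% of all tested probes. Software p-values were under 0.05 in opposite directions on different arrays for 3 of the 12, Sln, Myl7 and the Nr2f2 probe A_52_P155713, against 15.4%. By the size of that range Sln ranked 21 and Myl7 33 of 29576, with 4.84 and 4.67 on the log2 scale, and the Myl4 probes ranked 3571 and 1906. The members were chosen with earlier results of these data known, so these counts describe them and are not a test.

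**Figure D3:**
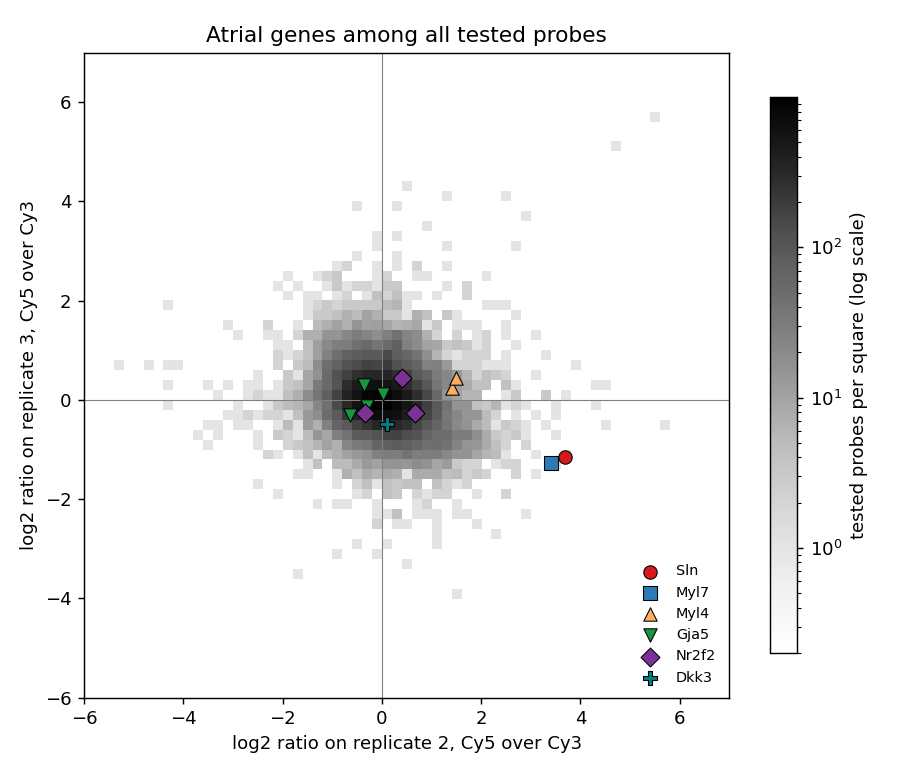
Log2 ratio, Cy5 over Cy3, on replicate 2 against replicate 3 for all 29576 tested probes (grey squares of 0.2 by 0.2, darker for more probes on a log scale) and for the tested probes of the atrial genes (coloured symbols). Sln and Myl7 lie together at the lower right, apart from most probes, the Myl4 probes at the right, and Gja5, Nr2f2 and Dkk3 within the mass of probes.

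The gene most like Sln over the 3 arrays was Myl7, and the gene most like Myl7 was Sln. Likeness was measured by the root mean square difference of the log2 ratios on the 3 arrays among 18077 genes well above background in both channels of every array, each by its brightest probe. Sln and Myl7 differed by 0.24, and no other gene came within 0.25 of either. This holds for the deposited ratios, and likeness under other background correction was not examined. With normexp and loess the ratio on replicate 2 was 1.44 for Sln and 2.16 for Myl7. Next to both stood Olfr868, an olfactory receptor gene, at 0.51 from Sln and 0.42 from Myl7, and Rhou at 0.58 and 0.48. Rhou had a ratio of 2.84 on replicate 2, and the spots around it had a median of 1.13 there. For Olfr868 the ratio was 2.86 and the median around it -0.07. With only 3 arrays, many genes come close where ratios are small. By the same measure 41 genes lay within 0.25 of Myl4, led by Ms4a6c, Nat3 and AK144717, 9 of Dkk3, led by Ucp3, Astn1 and Mcf2l, and 386 of Nr2f2, led by Sox9, Mbd5 and Pmel. Gja5 had 2649, led by Ahcyl2, TC1728935 and Ilf2. Dkk3 was not itself among the 18077 genes, since its Cy3 signal on replicate 1 was not well above background.

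As a group, the 6 tested genes, each by its brightest probe, had a median log2 ratio of 0.08, 0.75 and -0.38 on replicates 1, 2 and 3, beside medians of 0.00, 0.04 and -0.06 over all 20603 tested genes. A list of 12 other genes with atrial enrichment, all tested, did not show this order. Its medians were 0.02, 0.08 and 0.13, and on replicate 2, 0 of its genes were at least 2-fold brighter in Cy5, against 1204 of all 20603 tested genes, and 4 were at least 2-fold brighter in Cy3, against 547. On replicate 3, 2 were at least 2-fold brighter in Cy5, against 469, and 1 of these, Kcnj5, was not well above background in both channels on every array. Kcnj3, a potassium channel subunit that carries the acetylcholine response of the atrium, was the gene of that list taken by the study's selection, brighter in Cy5 with ratios of 0.75, 0.53 and 1.37 (limma adjusted p = 1.00). Nr2f1, a nuclear receptor related to Nr2f2, had a ratio of -1.04 on replicate 2 and was not well above background in both channels on every array.

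Nppa and Nppb, the natriuretic peptide genes, were brighter in Cy3 on all 3 arrays. The brightest Nppa probe had log2 ratios of -0.89, -0.61 and -0.82 and met the study's selection in Cy3, with a mean of -0.78 ± 0.14 (SD, n = 3) and a limma adjusted p of 1.00. Nppb gave -1.42, -0.22 and -0.88. Both were on the opposite side of 0 from Sln and Myl7 on replicate 2 and on the same side on replicate 3, and on replicate 1 they were on the side of Myl7.

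Among 9 ventricular chamber genes, all tested, the medians were -0.23, -0.49 and 0.07. These include Myl2 and Myl3, saturated in 6 and 5 of their 6 signals. The study's selection, as repeated here, took 91 of all 20603 tested genes in Cy5 and 125 in Cy3. Of the 9 ventricular genes it took 3, Kcnd2 in Cy5, at 1.63, 0.66 and 1.64, and Irx5 and Myl2 in Cy3. Irx5, a homeobox gene, had -0.71, -1.01 and -0.61. Myl2, the ventricular counterpart of Myl7, was saturated in both channels on every array, and no ratio is given for it. Of 10 cardiomyocyte genes shared by the chambers the selection took 1, Tnnt2, cardiac troponin T, in Cy3 (125 of all 20603 genes), which was likewise saturated throughout. That list had medians of 0.07, -0.45 and 0.08, with Ryr2 at -1.08 on replicate 2 and Myh6, with 2 of its 6 signals saturated, at 1.46 on replicate 3. Tnni3, with 5 of its 6 signals saturated, and Actc1, with 1, also entered its medians.

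The 6 lists around single members held 0 genes called by limma or by the study's selection among 33 tested, and 4 of them, Casq1, Cntn2, Eng and Bmpr1a, had an unadjusted p under 0.05 in limma, against 683 of all 20603 tested genes. For Sln this was the SERCA pump with its regulators, 6 genes, of which Casq1, a calcium store protein, had ratios of -1.13, -1.40 and -0.39. Atp2a2, the heart's pump, and Pln, its inhibitor, were saturated in 5 and 3 of their 6 signals, and no ratios are given for them. For Gja5 it was 4 other connexins, with Gja1, the main ventricular connexin, at 0.02, -1.29 and 0.43, Gjd3 at 0.41, 0.61 and -0.09 and Gjc1 at 0.38, -0.15 and 0.13. For Bmp10 it was receptors and targets, 13 of 14 tested, with medians of -0.03, 0.15 and 0.01. Eng, a co-receptor, had -0.24, -0.61 and -0.52, Id2, a target, a mean of -0.45, and Bmpr1a, a type I BMP receptor, 0.46, 0.41 and 0.34. Of the COUP-TF relatives of Nr2f2, Nr2f6 had 0.04, 0.02 and 0.01. Of the Dickkopf relatives of Dkk3, 2 of 4 were tested, Dkk1, not well above background in both channels on every array, at 0.44, 1.40 and -0.51, and Dkkl1 at -0.37, 0.09 and 0.77. The 6 tested of 8 sinus node and conduction genes had medians of 0.09, -0.33 and 0.13, with Cntn2 at -0.31, -1.51 and -0.53 and Tbx3 at 0.13, 0.14 and 0.10.

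**Figure D4:**
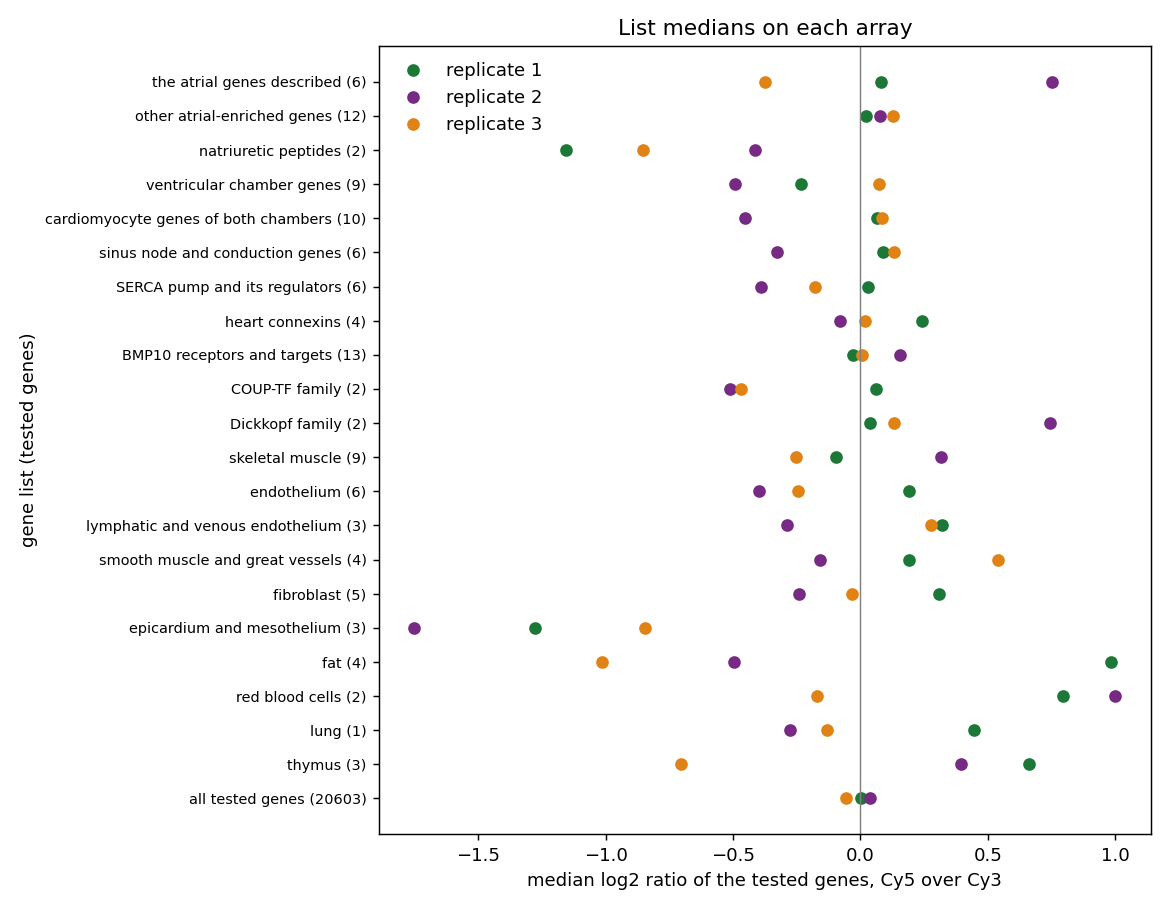
Median log2 ratio, Cy5 over Cy3, of the tested genes of each list on replicates 1, 2 and 3, each gene by its brightest probe, with the number of tested genes in parentheses. The atrial genes described have medians of 0.08, 0.75 and -0.38, and the 12 other atrial-enriched genes have 0.02, 0.08 and 0.13. Genes with saturated signals are included.

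Markers of other tissues were read beside the members. Skeletal muscle, which also expresses Sln, had 9 of 10 marker genes tested, with medians of -0.10, 0.32 and -0.25. On replicate 2, 2 of the 9, against 1204 of all 20603 tested genes, were at least 2-fold brighter in Cy5, Myl1, a fast muscle light chain, at 1.01 and Myh2, a fast myosin, at 1.05, while Pvalb was at -0.60 and Myh1 at -0.10. The summed signal of the list lay between 138966 and 308011 in Cy3 and between 156338 and 224082 in Cy5, and includes Myh4, which was saturated in 3 of its 6 signals. All 9 tested markers but Myh1 were well above background in both channels of every array. The part of skeletal muscle in the Sln and Myl7 ratios was not tested.

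Epicardium and mesothelium had 3 of 4 markers tested, and the study's selection took 2, both in Cy3, against 125 of all 20603 tested genes: Msln at -1.43, -1.75 and -1.15 and Upk3b, not well above background in both channels on every array, at -1.28, -1.96 and -0.84, while Wt1 had 0.32, -0.23 and -0.23. Its summed signal lay between 530 and 1002 in Cy3 and between 360 and 531 in Cy5. Under other background correction the median of that list moved from -1.36 to -0.13 or -0.19. Red blood cell genes, 2 of 4 tested, had medians of 0.79, 1.00 and -0.17, with Hba-a1 at 0.96, 0.96 and -0.02, with 2 of its 6 signals saturated, and Alas2 at 0.63, 1.04 and -0.32, and summed signals from 68037 to 109593 in Cy3 and from 107748 to 182753 in Cy5. Fat, 4 of 5 tested, had 0.99, -0.50 and -1.02, with Adipoq at 1.52, -0.72 and -1.52 and Plin1 at 0.45, -0.94 and -0.51, both not well above background on every array, Cidea at -0.23, -0.095 and -0.34, and Cfd, well above background throughout, at 2.26, -0.28 and -1.91. Their part in the members' ratios was not tested.

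The 6 remaining lists held 0 genes called by limma or by the selection among 22 tested, and 2 of them, Lyve1 and Cnn1, had an unadjusted p under 0.05 in limma, against the same 683 of 20603. Endothelium had medians of 0.19, -0.40 and -0.25 (Tie1, Cdh5 and Kdr with means of -0.37, -0.35 and -0.26). Lymphatic and venous endothelium, the other site of Nr2f2, had 0.32, -0.29 and 0.28, with Lyve1 at 1.22, 1.23 and 0.28 and Ephb4 and Prox1 with means of -0.15 and -0.13. Smooth muscle had 0.19, -0.16 and 0.54 (Cnn1, Myh11 and Tagln with means of 0.56, -0.08 and 0.06), and fibroblasts had 0.31, -0.24 and -0.03 (Col1a1, Tcf21 and Col3a1 with means of -0.32, 0.20 and -0.16). Of lung markers only Scgb1a1 was tested, at 0.45, -0.28 and -0.13. Thymus had 0.66, 0.40 and -0.70, with Dntt at 0.78, 1.04 and -0.92, Ptcra at 0.66, 0.22 and -0.70 and Cd3e at -0.14, 0.40 and -0.39.

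Promoter sequence was at hand for 5 of the 7 members in the RefSeq table of the build GRCm38.p6, and Sln and Dkk3 were not among them. It is shown for Myl7, whose ratio moved furthest among those 5. The 250 bases before its start lie at chr11:5898783-5899032 on the minus strand, printed 5′ to 3′ in the direction of transcription with the motif matches in capitals.
Myl7 promoter: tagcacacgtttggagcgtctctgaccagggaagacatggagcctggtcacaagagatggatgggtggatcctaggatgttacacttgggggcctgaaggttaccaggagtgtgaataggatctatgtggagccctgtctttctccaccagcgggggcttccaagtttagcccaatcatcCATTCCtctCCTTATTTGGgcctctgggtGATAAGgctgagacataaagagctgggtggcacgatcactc

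Both strands were searched for 6 motifs of factors known in heart muscle: the CArG box of serum response factor and the MEF2 site, each by its usual consensus, CATTCC for TEAD factors, AGGTGT for T-box factors, GATAAG for GATA factors, and the TATA box as TATAAA. In the capitals stand, in order, CATTCC, the CArG box and GATAAG, starting 70, 61 and 41 bases before the start, with no overlap between them. Among 32851 promoters of the same length, 12.6% held CATTCC, 1.47% a CArG box and 6.55% GATAAG. Of the other 4 members, Bmp10 held GATAAG, 218 bases before its start, and the windows of Myl4, Gja5 and Nr2f2 held none of the 6. The MEF2 site, AGGTGT and TATAAA, present in 2.92%, 11.8% and 12.4% of promoters, were in none of the 5 windows.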

How the data were processed

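The authors isolated RNA with QIAzol, pooled 2 hearts per channel, labelled it by Agilent's low RNA input amplification and read the arrays with Agilent Feature Extraction 9.1.3.1. The processed signal intensities they deposited are those left after subtraction of the local background and dye normalization (linear, then lowess) array by array. The deposited log10 ratios of these signals, Cy5 over Cy3, were put on the log2 scale. The deposited p-values are the software's for single spots. The deposited error of the log10 ratio was put on the log2 scale alike. The authors' second table of log10 ratios holds the same values, apart from 1 value of replicate 1 that it lacks, with a median of 0 on every array, and served as an alternative.

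Of 43379 gene spots per array, 11, 21 and 4 outliers were left out on replicates 1, 2 and 3, and between 28942 and 30810 were well above background per channel. Spots of a probe were averaged, and a probe needed a mean signal of at least 20 and a value on every array, which left 29576 probes of 20603 genes. Log2 ratios were tested against 0 with limma 3.58.1 in R 4.3.3 (eBayes with an intensity trend, two-sided, Benjamini-Hochberg over all tested probes). The study's selection was repeated with the array p-values in place of the p-value from EDGE3. The t-test that the methods name for statistics in general was run as an alternative. Precision is limited by the number of arrays. The members, the gene lists and the tests were chosen with earlier results of these data known. The genes named are all members, Lrrc10, Nppa and Nppb, the 3 genes nearest each member, and of each list up to 3 with the largest mean ratio and any gene called; the skeletal muscle genes Myh2 and Myh4, the fat gene Cfd and the atrial gene Kcnj5 were named after their values had been seen. Gene names are those of the array design, updated by RefSeq accession for 24844 of 41174 probes, and 9 of the 14 member probes carry such an accession. Alternatives were normexp background correction (offset 50) with loess or median centring, other signal filters, limma without the trend and omission of each array. Some genes that the rule for named genes takes are not reported here. The neighbouring spots were examined after the ratios had been seen.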

Additional observations from a re-analysis of the deposited data

How the results depend on the processing

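The size of the Sln and Myl7 ratios depends on the background correction, and their order over the arrays does not. With normexp correction, which adds an offset of 50 and so shrinks ratios of dim probes, Sln had 1.44 on replicate 2 and -0.24 on replicate 3 after loess, and 1.66 and -0.28 after median centring, and Myl7 had 2.16 and -0.43, and 2.42 and -0.33. Subtracting the median of the neighbouring spots, an alternative chosen after seeing the data, gave 3.84 and -1.17 for Sln and 3.25 and -1.41 for Myl7. The SD of the log2 Cy5 signal moved under scaling between arrays from 2.76 to 1.13 for Sln, from 2.87 to 1.64 for Myl7 and from 1.12 to 0.53 for Myl4.

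Mean log2 ratios of Gja5 changed sign under normexp. With loess they became -0.11 (A_52_P525317), 0.15 (A_52_P496163) and 0.10 (A_51_P333216), and with median centring 0.35 (A_52_P496163), 0.24 (A_51_P333216) and 0.075 (A_52_P612636), where the median of all tested probes was itself 0.15 rather than 0.00, so that A_52_P612636 stayed below it. Leaving out 1 array gave means from -0.53 to 1.89 for Sln, from -0.74 to 1.60 for Myl7, from 0.059 to 0.82 and from 0.033 to 0.97 for the Myl4 probes, from -0.14 to 0.19 for A_52_P525317, from -0.11 to 0.074 for A_52_P496163, from -0.30 to 0.25 for the Nr2f2 probe A_52_P620399, from -0.41 to 0.20 for A_52_P155713 and from -0.20 to 0.71 for Dkk3. Of the 84 alternative means of single member probes, 67 kept direction and side of the threshold. The median over the member genes, 0.41, stayed between 0.13 and 0.68 under every alternative run. On the single arrays that median was 0.08, 0.75 and -0.38, so the arrays did not share its direction. Of 140 alternative medians of the other lists 17 moved by more than their spread over arrays, 12 of them under normexp with median centring. The median of all tested probes under that setting, 0.15, was not taken off.

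The 2 calls of limma became 1 with normexp and loess, 0 with no signal minimum, 1 with a minimum of 50, 1 among probes well above background and 0 in the t-test, and between 0 and 543 without 1 array; the members' calls were 0 to 2. Under normexp with median centring, the study's selection gave 9 probes in Cy3 in place of 150 and 81 in Cy5 in place of 120. That setting changes background correction and normalization together but keeps the software p-values of the deposited ratios. Without 1 array the selection gave 571 to 1166 probes in Cy5 and 436 to 663 in Cy3, and 0 to 1 member in Cy5, where fewer arrays have to meet it. A range of at least 2-fold was found for 2401 probes and 4 members under normexp with median centring, and for 4288 to 5780 probes and 4 to 7 members without 1 array. The cause of the differences between corrections was not tested. Both RNAs of a replicate lie on the same array, so each ratio is already a paired value. The tests of the ratios against 0 use that pairing, and 1 group of ratios remains.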
